A study of Mus musculus with 12 samples.

Results

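Mcm7 and 9 other genes of the replicative helicase and its loading are described here, 10 of the 28116 gene symbols in the deposited table. They were picked by their known roles, with no threshold on their values but with earlier results of these data known: the hexamer subunits Mcm2, Mcm3, Mcm4, Mcm5, Mcm6 and Mcm7, the loaders Cdc6 and Cdt1, and the activation partners Mcm10 and Gins2. Mcm7 is set apart because the microRNA cluster that holds miR-106b lies within it, and miR-106b is the microRNA that the study inhibited. The question was whether Mcm7 departs from its partners. RNA came from tibialis anterior muscle of C57BL/10ScSn-Dmdmdx/J mice aged 4 months, which lack functional dystrophin in every group, controls included. Cardiotoxin, a snake toxin that kills muscle fibres and starts regeneration, was injected in all groups. The 4 groups, with 3 libraries each, were anti-miR106b at day 7, anti-miR-Scrambled at day 7, anti-miR106b at day 3 and anti-miR-Scrambled at day 3. The series text names animal triplicates and writes day 5 in one place, whereas each library is labelled day 3 or day 7. Whether a mouse gave muscles to more than 1 group is not stated, so p-values measure the spread between these libraries, and the cells that took up the inhibitor were not determined.

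In each cell cycle, Cdc6 and Cdt1 load the ring of MCM subunits, Mcm2 to Mcm7, onto replication origins. Cdc45 and the GINS complex then join the ring to make the active helicase, and Mcm10 takes part in that switch. Cells that leave the cycle lower most of these genes, many of which are targets of E2F transcription factors. In injured muscle the dividing cells include satellite cell descendants and cells of the infiltrate.

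Mcm7 lies on the minus strand at chr5:138164583-138172422 (GRCm38, GENCODE M21). The hairpins of Mir106b, Mir93 and Mir25 sit in intron 13 of 14 of its main coding transcript. Those of Mir93 and Mir25 also fall inside an exon of an annotated retained-intron transcript of Mcm7. None of the 3 has an entry in the table, so neither the microRNA nor its inhibition was measured, and Mcm7 is read here as the host transcript only. The mature sequences below, from RefSeq on GRCm38.p6, show what the inhibitor was aimed at and what shares its seed (bases 2 to 8, in capitals). miR-25-3p is from the same cluster but has another seed, and miR-17-5p and miR-20a-5p come from chromosome 14.
miR-106b-5p: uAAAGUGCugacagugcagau
miR-93-5p: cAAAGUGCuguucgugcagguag
miR-25-3p: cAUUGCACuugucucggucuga
miR-17-5p: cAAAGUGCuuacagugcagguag
miR-20a-5p: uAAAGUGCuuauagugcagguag

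In all, 7 mature mouse microRNAs in the RefSeq table have the seed of miR-106b-5p. The longest annotated coding 3′ UTRs of the 10 genes were searched for its matches. Mcm3 holds the 8-base match GCACTTTA, Mcm7 the 7-base match GCACTTT and Gins2 the 7-base match CACTTTA. A 7-base match of either kind is thus in 3 of 10 genes, against 18.6% of 21028 genes, and the 8-base match in 1 of 10, against 3.50%. The UTR of Mcm7 has only 136 bases, where the median over all genes is 960.5. The sites are printed as 30 bases of UTR with the match in capitals, because they are the letters through which a seed could meet these transcripts. They lie at chr1:20803154-20803183, chr5:138164619-138164648 and chr8:120580337-120580366 (GRCm38, minus strand in each case). A match is a description and not evidence of regulation.
Mcm3: cccacccccagGCACTTTAgtccaggaagc
Mcm7: tctcccatgctGCACTTTtttattctgcca
Gins2: gttctgattgtCACTTTActtctgagcatg

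Promoters were read from RefSeq as windows of 300 bases, 250 before and 50 after each annotated start (GRCm38.p6), which 8 of the 10 genes have (Mcm4 and Gins2 are not in that table). Both strands were searched for the E2F 8-base letters TTTCCCGC, TTTGGCGC, TTTCGCGC and TTTGCCGC. Mcm3, Mcm5, Mcm6, Mcm7, Cdt1 and Cdc6 hold at least 1 match, Mcm2 and Mcm10 none, whereas 2.26% of 32851 windows hold one. CCAAT, a shorter motif, is in 6 of the 8 genes and in 37.4% of windows, and CACGTG in 0 of 8 and in 7.15%. The matched stretches are printed with the E2F letters in capitals so that the host gene can be set beside its partners. They lie at chr5:138171834-138172078 for Mcm7, chr1:20820263-20820323 for Mcm3, chr8:75109326-75109397 for Mcm5, chr1:128359715-128359845 for Mcm6, chr8:122568017-122568064 for Cdt1 and chr11:98907983-98908050 for Cdc6, on the minus strand for Mcm7, Mcm3 and Mcm6. Matches overlap each other in Mcm5 and Mcm6, and in Mcm7 an E2F match shares 1 base with a CCAAT. Mcm7 has a second RefSeq start, whose window holds no E2F match. Its printed window also holds the start of Ap4m1, which is read from the other strand.
Mcm7: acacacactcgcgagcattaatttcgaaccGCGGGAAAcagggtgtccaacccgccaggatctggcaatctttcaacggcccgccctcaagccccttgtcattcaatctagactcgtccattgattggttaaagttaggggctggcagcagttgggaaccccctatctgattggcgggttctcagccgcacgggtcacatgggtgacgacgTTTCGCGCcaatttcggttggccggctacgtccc
Mcm3: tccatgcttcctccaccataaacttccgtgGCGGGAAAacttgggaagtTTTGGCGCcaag
Mcm5: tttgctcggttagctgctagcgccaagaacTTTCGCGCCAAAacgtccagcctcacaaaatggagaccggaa
Mcm6: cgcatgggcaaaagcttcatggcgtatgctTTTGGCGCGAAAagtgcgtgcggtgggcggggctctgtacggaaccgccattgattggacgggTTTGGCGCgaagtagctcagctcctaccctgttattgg
Cdt1: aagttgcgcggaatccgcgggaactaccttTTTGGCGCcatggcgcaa
Cdc6: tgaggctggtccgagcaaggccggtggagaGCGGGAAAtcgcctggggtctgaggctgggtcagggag

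Libraries held 28857739 to 42825246 reads over 22518 to 24620 symbols with a read. Levels are given in CPM, a gene's reads per 1000000 reads of a library size that the authors had scaled, and 1 CPM rested on 28.1 to 46.9 reads. Markers of mature fibres were present in every library, as the tissue label requires, with summed levels of 189900 to 210441 CPM in anti-miR-106b day 7, 202591 to 219217 in scrambled day 7, 69421 to 75675 in anti-miR-106b day 3 and 106596 to 126390 in scrambled day 3 muscles (10 of 10 markers in the table). Fewer cells of a type and less RNA per cell cannot be told apart in bulk tissue.

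Mcm7 stood at 13.2, 12.9 and 13.1 CPM in anti-miR-106b day 7 muscles and at 14.0, 11.6 and 12.5 CPM in scrambled day 7 muscles. It stood at 30.2, 33.7 and 27.7 CPM in anti-miR-106b day 3 muscles and at 23.6, 23.3 and 21.1 CPM in scrambled day 3 muscles. The day 7 arms overlapped, the day 3 arms did not, and every day 3 library lay above every day 7 library. These values rested on 361 to 1498 reads per library.

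Mcm2, a hexamer subunit that also binds histones, had 13.6, 12.0 and 13.4 CPM in anti-miR-106b day 7, 12.0, 13.5 and 12.8 CPM in scrambled day 7, 22.6, 23.8 and 21.6 CPM in anti-miR-106b day 3 and 18.3, 18.6 and 18.8 CPM in scrambled day 3 muscles. Mcm4 had 7.51, 6.31 and 6.93 CPM in anti-miR-106b day 7, 6.52, 6.62 and 7.22 CPM in scrambled day 7, 15.0, 17.7 and 17.3 CPM in anti-miR-106b day 3 and 13.9, 15.5 and 14.7 CPM in scrambled day 3 muscles. Both followed the order of Mcm7 between days, but the day 3 arms of Mcm4 overlapped. Mcm5, the subunit that pairs with Mcm2 at the gate of the ring, had 3.72, 2.07 and 3.43 CPM in anti-miR-106b day 7, 3.35, 2.71 and 3.66 CPM in scrambled day 7, 22.0, 24.3 and 22.7 CPM in anti-miR-106b day 3 and 15.0, 15.0 and 15.3 CPM in scrambled day 3 muscles. Mcm3 ranged from 4.46 to 8.44 CPM in anti-miR-106b day 7, 5.73 to 7.06 in scrambled day 7, 24.3 to 26.5 in anti-miR-106b day 3 and 18.0 to 19.2 in scrambled day 3 muscles. Mcm6 ranged from 5.74 to 11.6 CPM in anti-miR-106b day 7, 6.12 to 8.33 in scrambled day 7, 34.8 to 37.6 in anti-miR-106b day 3 and 23.4 to 26.3 in scrambled day 3 muscles. Mcm5 thus differed most between the days among these subunits, and Mcm2 least. Replicate 1 of anti-miR-106b day 7 was the highest of its group and replicate 2 the lowest for all 10 genes. With either of them left out, all 10 were still lower at day 7 in that arm.

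The loaders and activation partners rested on fewer reads. Cdt1, which brings the ring to the origin, had 2.40, 1.47 and 1.60 CPM in anti-miR-106b day 7, 1.30, 1.10 and 1.31 CPM in scrambled day 7, 9.33, 10.9 and 10.5 CPM in anti-miR-106b day 3 and 7.19, 5.78 and 7.23 CPM in scrambled day 3 muscles. Gins2, a GINS subunit, had 1.14, 0.719 and 0.872 CPM in anti-miR-106b day 7, 0.489, 0.710 and 0.738 CPM in scrambled day 7, 5.15, 7.06 and 5.96 CPM in anti-miR-106b day 3 and 3.69, 3.67 and 3.00 CPM in scrambled day 3 muscles. Cdt1 was the only one of the 10 genes whose arms did not overlap at day 7, being higher with anti-miR-106b. Of 14063 tested genes, 728 (5.18%) were higher and 800 lower without overlap, so 1 of 10 is near the share of all genes. Cdc6, the ATPase that works with Cdt1, ranged from 0.505 to 1.11 CPM in anti-miR-106b day 7, 0.654 to 0.911 in scrambled day 7, 2.50 to 3.15 in anti-miR-106b day 3 and 2.23 to 2.69 in scrambled day 3 muscles. Mcm10 ranged from 0.541 to 1.66 CPM in anti-miR-106b day 7, 0.489 to 1.09 in scrambled day 7, 4.51 to 5.80 in anti-miR-106b day 3 and 3.28 to 3.93 in scrambled day 3 muscles. The lowest of these values rested on 14 reads. All 10 genes passed the expression filter of 1 CPM in at least 3 libraries, 7 of them with 1 CPM in every library. Mcm10, Cdc6 and Gins2 passed it only through their day 3 libraries.

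**Figure D1:**
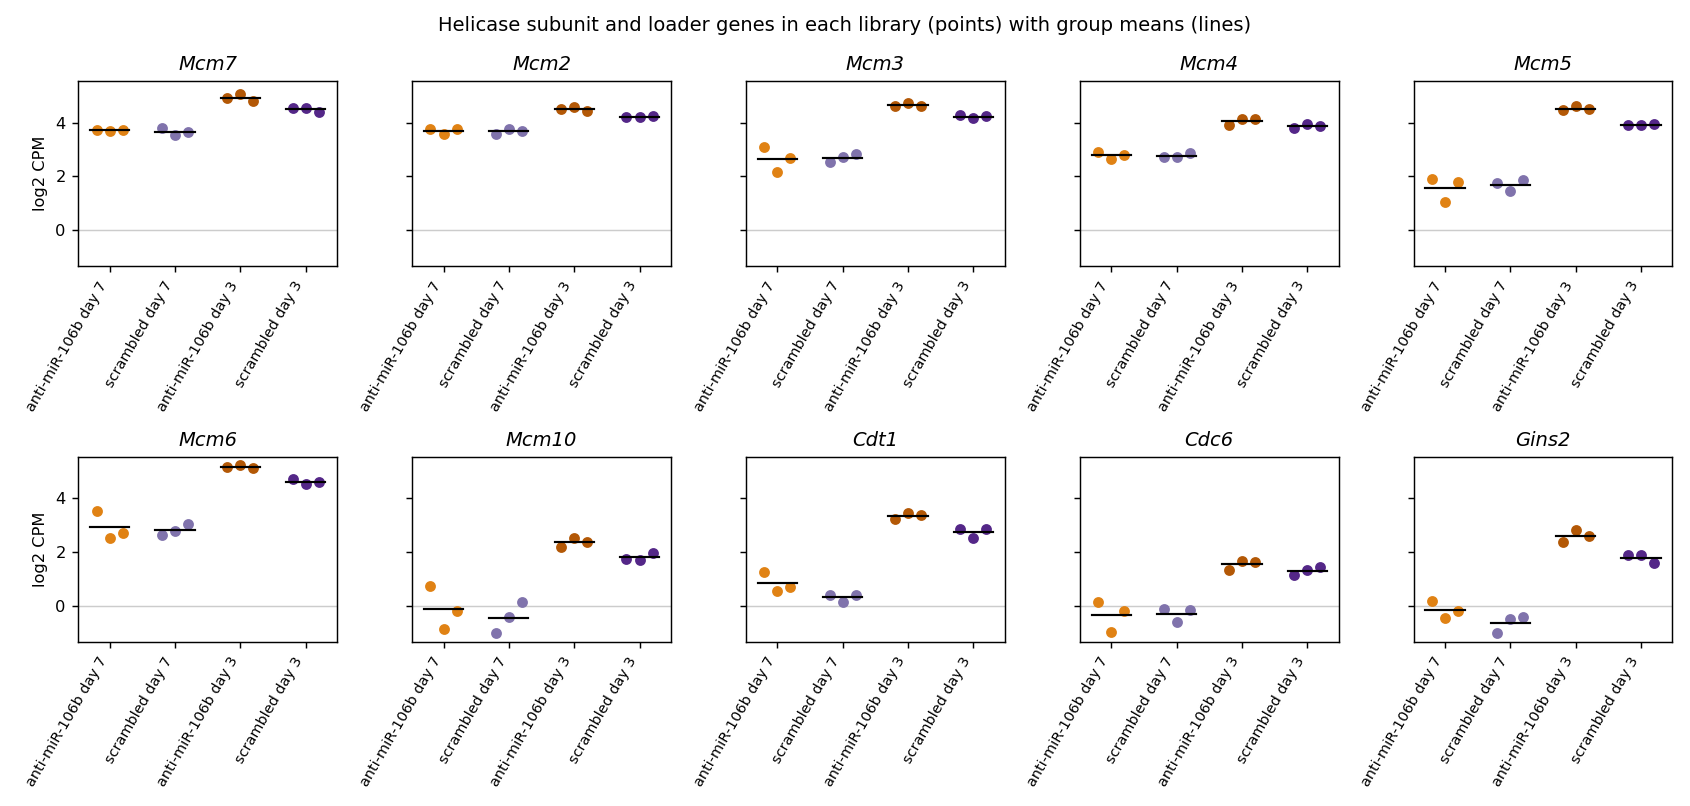
Level of each of the 10 genes (log2 CPM, vertical axis) in the 12 libraries, with 1 point per library and a line at the group mean; groups run from anti-miR-106b day 7 to scrambled day 3. In all 10 panels the day 3 libraries lie above the day 7 libraries, and for Mcm7 the anti-miR-106b libraries lie above the scrambled ones at day 3 and overlap them at day 7.

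Levels of different genes were compared per kilobase of merged exons. At day 7 Mcm7 led, at 2.95 ± 0.04 CPM per kb in anti-miR-106b and 2.87 ± 0.28 in scrambled muscles (SD, n = 3 each), and its libraries did not overlap those of Mcm4, the next gene, at 1.93 ± 0.17 and 1.89 ± 0.11. Mcm4, Mcm2, Mcm3 and Mcm6 followed in that order in both arms, each overlapping the next. Mcm5, Cdt1, Gins2, Cdc6 and Mcm10 followed them, and Mcm10 was lowest at 0.133 ± 0.074 and 0.10 ± 0.039 CPM per kb. At day 3 Mcm6 led at 7.73 ± 0.31 CPM per kb in anti-miR-106b and 5.28 ± 0.32 in scrambled muscles. Mcm7 followed with 6.90 ± 0.67 and 5.12 ± 0.30 CPM per kb, and then Mcm3 with 6.68 ± 0.34 and 4.97 ± 0.17, and these neighbours overlapped in each arm. Merged exons hold more sequence than 1 transcript does. Per kilobase of the principal coding transcript, a length added after the values were seen, Mcm7 still led at day 7 with 4.41 ± 0.06 CPM per kb in anti-miR-106b and 4.29 ± 0.41 in scrambled muscles. Mcm2 then came next with 3.86 ± 0.25 and 3.79 ± 0.22, apart from Mcm7 in the anti-miR-106b arm and overlapping it in the scrambled arm. On this length Mcm6 led Mcm7 at day 3 without overlap, at 12.4 ± 0.5 CPM per kb against 10.3 ± 1.0 in anti-miR-106b and 8.47 ± 0.51 against 7.65 ± 0.45 in scrambled muscles.

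Between the days all 10 genes fell, and Mcm7 fell less than most of its partners. Tests across genes used limma on log2 CPM over 14063 genes, with p-values adjusted by the Benjamini-Hochberg method and a threshold of 0.05. In the anti-miR-106b arm 10 of 10 genes were lower at day 7 than at day 3, where 40.8% of tested genes were, and in the scrambled arm again 10 of 10, where 35.3% were. The median log2 fold change of the 10 was -2.13 in the anti-miR-106b arm, against -0.02 over all tested genes, and -1.70 in the scrambled arm, against -0.00. The days did not overlap for any of the 10 in either arm, while 41.7% of tested genes in the anti-miR-106b and 37.5% in the scrambled arm were lower without overlap. The filter favoured a fall of Mcm10, Cdc6 and Gins2, which passed it through day 3 alone, so their calls carry no weight here. The other 7 were lower in both arms, with medians of -2.01 in the anti-miR-106b and -1.54 in the scrambled arm. Mcm7 changed by -1.22 ± 0.09 (SE, adjusted p = 1.97e-08) in the anti-miR-106b arm and by -0.84 ± 0.09 (adjusted p = 2.23e-06) in the scrambled arm. That is a level 2.33-fold and 1.79-fold lower at day 7.

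The subunits of 1 ring thus spread widely. Mcm2 changed least, by -0.80 ± 0.08 in the anti-miR-106b and -0.55 ± 0.08 in the scrambled arm. Mcm4 changed by -1.27 ± 0.09 and -1.12 ± 0.09, next to Mcm7. Mcm3 changed by -2.01 ± 0.17 and -1.54 ± 0.17, and Mcm6 by -2.25 ± 0.20 and -1.81 ± 0.20. Mcm5, which fell most among the subunits, changed by -2.95 ± 0.18 and -2.23 ± 0.18 (SE, the anti-miR-106b arm given first in each pair), or 7.71-fold and 4.70-fold. Among the loaders and activation partners Cdc6 changed least. Cdt1 changed by -2.52 ± 0.17 and -2.44 ± 0.17, Gins2 by -2.75 ± 0.22 and -2.44 ± 0.22, Mcm10 by -2.48 ± 0.35 and -2.25 ± 0.35, and Cdc6 by -1.88 ± 0.26 and -1.60 ± 0.26. The largest adjusted p among the 20 changes was that of Cdc6 in the scrambled arm, 9.30e-05 in limma.

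**Figure D2:**
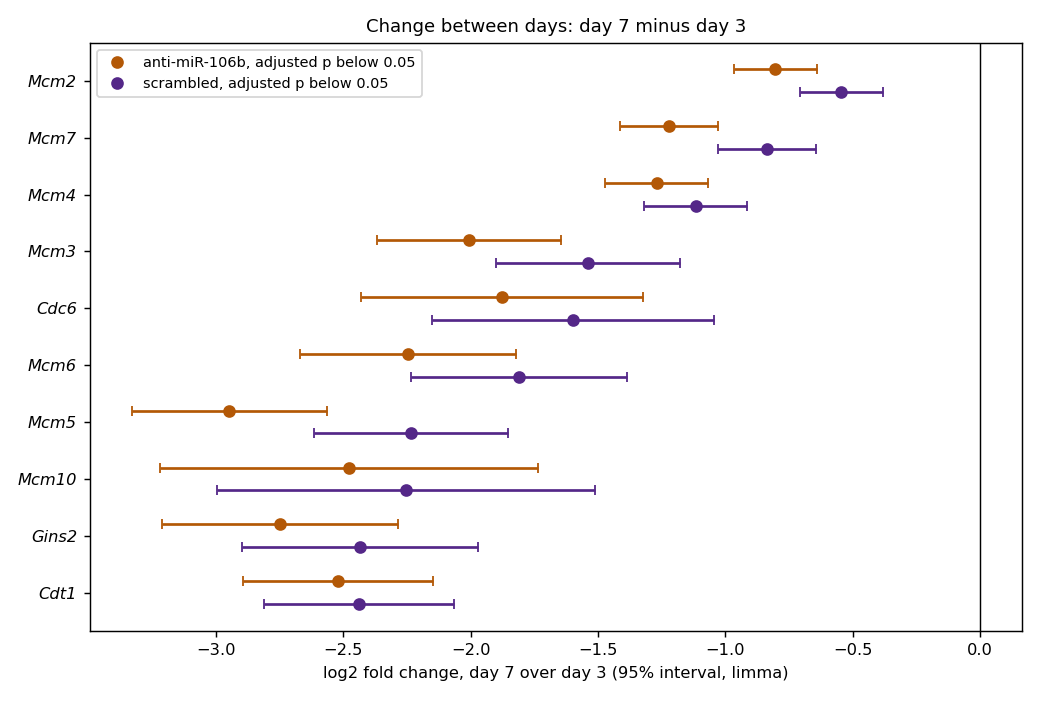
Log2 fold change of day 7 over day 3 (horizontal axis) for each gene with its 95% interval from limma, in the anti-miR-106b arm (upper point of each pair) and the scrambled arm (lower point). Every interval lies below 0; Mcm2, Mcm7 and Mcm4 are nearest to it and Mcm5, Mcm10, Gins2 and Cdt1 farthest.

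To test whether Mcm7 departs from each partner, the log2 ratio of Mcm7 to the partner was taken within each library, which does not depend on how libraries were scaled. Day labels were permuted within both arms (400 regroupings, exact, two-sided, smallest possible p 0.005), and p-values were adjusted over the 9 partners. Between day 7 and day 3 the ratio rose by 0.74 to Mcm3, 1.00 to Mcm6, 1.56 to Mcm5, 1.45 to Cdt1, 1.34 to Mcm10 and 1.56 to Gins2, each with an exact p of 0.005, the smallest possible, and an adjusted p of 0.0075. It rose by 0.71 to Cdc6 (exact permutation p = 0.01, adjusted p = 0.01125). The ratio of Mcm7 to Mcm2 fell by 0.35 (exact permutation p = 0.01, adjusted p = 0.01125), so Mcm7 fell more than Mcm2. The ratio to Mcm4 changed by 0.16 and did not pass (exact permutation p = 0.09, adjusted p = 0.09). The filter favoured a fall of Mcm10, Cdc6 and Gins2, which passed it through day 3 alone, so they are left out of the count. Of the other 6 partners, Mcm7 fell less than 4, more than 1, and by an amount not told apart from that of Mcm4.

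Within single libraries, Mcm7 minus Mcm5 was 1.83, 2.63 and 1.93 in anti-miR-106b day 7, 2.06, 2.10 and 1.77 in scrambled day 7, 0.46, 0.47 and 0.29 in anti-miR-106b day 3 and 0.65, 0.64 and 0.46 in scrambled day 3 muscles (log2 differences). Mcm7 minus Mcm2 was -0.04, 0.09 and -0.03 in anti-miR-106b day 7, 0.22, -0.22 and -0.04 in scrambled day 7, 0.42, 0.50 and 0.36 in anti-miR-106b day 3 and 0.36, 0.32 and 0.16 in scrambled day 3 muscles. The Mcm5 ratios of the days were far apart in both arms, while the Mcm2 ratios overlapped between days in the scrambled arm. Against the mean of the other 5 ring subunits, Mcm7 stood 0.98 ± 0.30 higher in anti-miR-106b day 7, 0.94 ± 0.21 in scrambled day 7, 0.35 ± 0.10 in anti-miR-106b day 3 and 0.33 ± 0.09 in scrambled day 3 muscles (log2 difference, SD, n = 3 each). Its distance from the ring mean thus grew by 0.63 in the anti-miR-106b arm and by 0.61 in the scrambled arm. Members of 1 library are not independent of each other, so the ratio tests share the values of Mcm7.

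**Figure D3:**
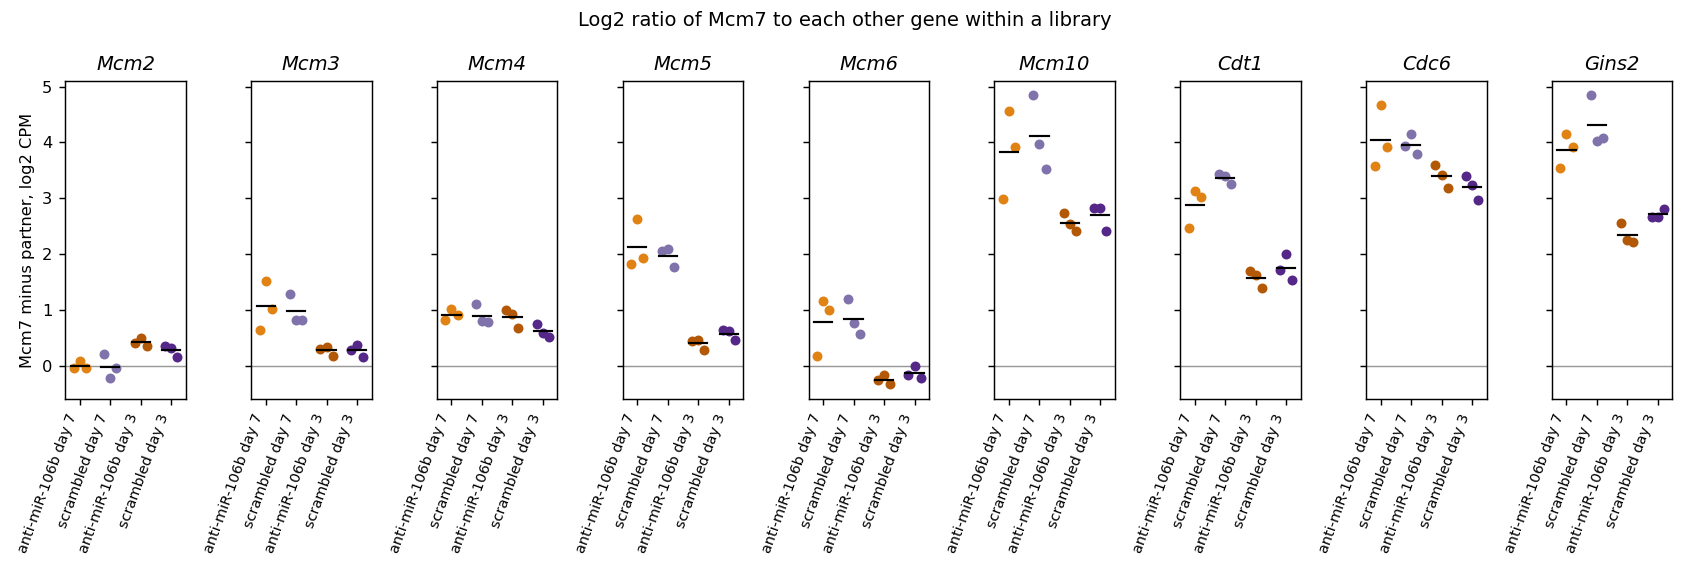
Log2 difference of Mcm7 minus each partner (vertical axis) within each library, with 1 point per library and a line at the group mean; groups run from anti-miR-106b day 7 to scrambled day 3 in each panel. The difference is larger at day 7 for Mcm3, Mcm5, Mcm6, Mcm10, Cdt1, Cdc6 and Gins2, and smaller for Mcm2; for Mcm4 the group means lie between 0.62 and 0.92.

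Cell type markers changed between the days too, in both directions. Mature fibre markers were higher at day 7 for 9 of 10 in the anti-miR-106b and 10 of 10 in the scrambled arm. Endothelial markers were higher for 3 of 5 and 5 of 5, where 37.9% and 32.9% of tested genes were. Fibroblast and fibro-adipogenic progenitor markers were lower for 5 of 6 in each arm, where 40.8% and 35.3% were, and 1 was higher in the anti-miR-106b arm. Summed macrophage markers (11 of 11 in the table) were 223 to 317 CPM in anti-miR-106b day 7, 203 to 303 in scrambled day 7, 2084 to 2365 in anti-miR-106b day 3 and 1415 to 1467 in scrambled day 3 muscles. All 11 were lower at day 7 in both arms, where 40.8% of tested genes in the anti-miR-106b and 35.3% in the scrambled arm were. Ly6c2 among them passed the filter only through day 3. Regenerating fibre markers (5 of 5) summed to 162 to 298, 129 to 310, 2590 to 2850 and 1462 to 1897 CPM in the same groups. Satellite cell and myoblast markers (6 of 6) summed to 6224 to 7900, 6519 to 6958, 4853 to 5261 and 5334 to 5703 CPM in the same groups. Their sum was mostly Des, which was higher at day 7, while the other 5, Pax7 and Myod1 among them, were lower in both arms. No marker of these lists was at 0 throughout a group. The part of these cells in the fall of the helicase genes was not tested.

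At day 7 the arms did not differ for Mcm7 beyond its error. Its log2 fold change was 0.05 ± 0.09 (SE, adjusted p = 0.894), with a 95% interval of -0.15 to 0.24. In limma 0 of the 10 genes passed in either direction, where 0.00711% of tested genes were higher and 0.0569% lower with anti-miR-106b, and 0 passed in each of the 22 alternatives tried. Without adjustment, p was below 0.05 for Cdt1 (0.53 ± 0.17, adjusted p = 0.275) and Gins2 (0.49 ± 0.22, adjusted p = 0.412). The other 7 partners ran from -0.11 ± 0.18 for Mcm5 to 0.33 ± 0.35 for Mcm10, and the median of the 10 was 0.04, against 0.01 over all tested genes. The interval of Mcm10, -0.41 to 1.07, is wide enough to hold the day 3 values of all 10 genes.

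At day 3, 6 of the 10 genes were higher with anti-miR-106b and 0 lower in limma, Mcm7 among the 6, where 16.3% of tested genes were higher. They were Gins2 (0.81 ± 0.22, adjusted p = 0.0106), Cdt1 (0.61 ± 0.17, 0.0149), Mcm5 (0.61 ± 0.18, 0.0173), Mcm6 (0.55 ± 0.20, 0.0430), Mcm7 (0.43 ± 0.09, 0.00246) and Mcm2 (0.29 ± 0.08, 0.010), all with SE and limma adjusted p. Mcm7 had the smallest p and, at 1.35-fold, a fold below the median of the 10, which was 0.49 on the log2 scale, against 0.01 over all tested genes. The 4 that did not pass were Mcm3 (0.43 ± 0.17, adjusted p = 0.0628), Mcm4 (0.18 ± 0.09, 0.155), Mcm10 (0.56 ± 0.35, 0.224) and Cdc6 (0.24 ± 0.26, 0.499). For 8 genes, all but Mcm4 and Cdc6, the anti-miR-106b libraries were higher without overlap, where 31.2% of tested genes were.

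The count of 6 rests on few libraries. Without anti-miR-106b day 3 replicate 2 it was 1, Mcm7 alone (0.36, adjusted p = 0.0167 in limma), where 1430 of 14063 tested genes were higher. Without scrambled day 3 replicate 2 it was 3, Mcm2, Mcm7 and Gins2, where 1470 of 14063 were. Calls over all genes thus fell as well, from 2296 higher with all libraries. Mcm7 passed in each of the 22 alternatives tried at day 3, and Mcm6 did not in 9 of them. Scaled to total reads, with no correction by the authors' factors, 8 of the 10 genes were higher, and the median log2 fold change of all tested genes was 0.20 in place of 0.01. The calls over all genes were then 5189 higher and 1377 lower, where the authors' scaling gave 2296 higher and 2726 lower.

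Beside these counts, macrophage markers had 6 of 11 higher and 0 lower with anti-miR-106b at day 3, and satellite cell and myoblast markers 3 of 6 higher. Regenerating fibre markers had 2 of 5 higher, where 16.3% of tested genes were. T and NK cell markers had 2 higher of the 5 that passed the filter, out of 8 in the table. Of those below the filter, Cd8a and Ncr1 had lower means with anti-miR-106b at day 3 (-1.22 against -0.85 and -0.71 against -0.63 log2 CPM). The mean of Cd3d was higher (-0.75 against -1.70). Mature fibre markers had 9 of 10 lower, where 19.4% were. Their part in the day 3 difference was not tested. Mcm3, the gene with the 8-base site, and Mcm7 and Gins2 with 7-base sites had day 3 log2 fold changes of 0.43, 0.43 and 0.81. The 7 genes without such a site ranged from 0.18 to 0.61, and Gins2 lay above that range. Among these 7, Mcm5 and Cdc6 hold a 6-base match. Whether a site bears on these changes was not tested.

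**Figure D4:**
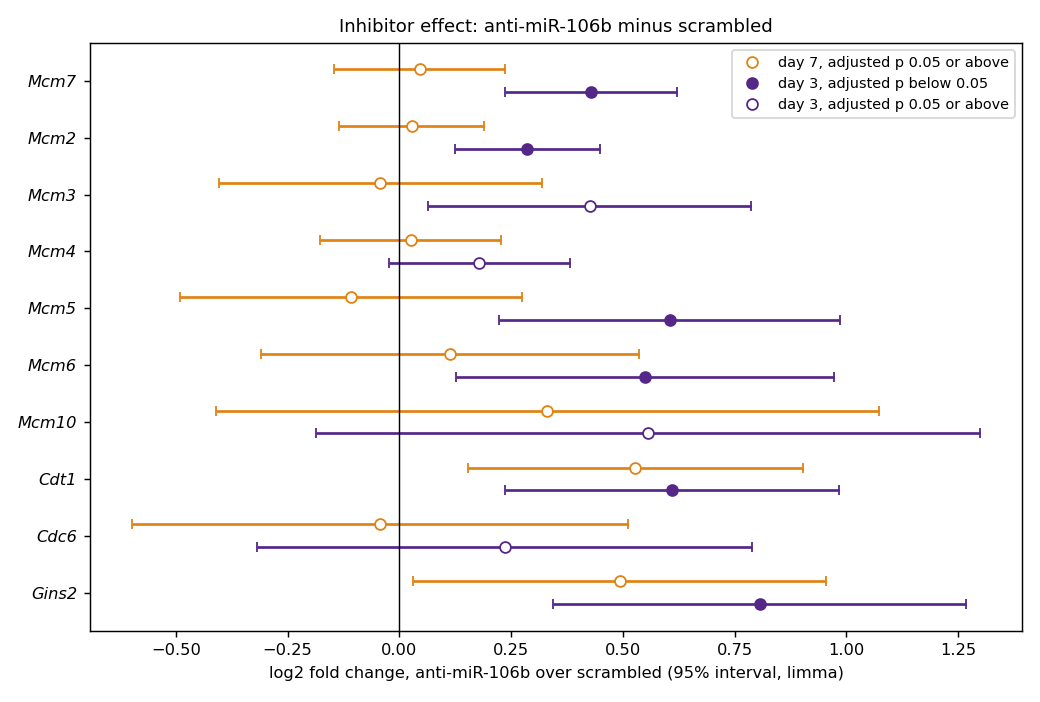
Log2 fold change of anti-miR-106b over scrambled (horizontal axis) for each gene with its 95% interval from limma, at day 7 (upper point of each pair) and day 3 (lower point); filled points passed an adjusted p of 0.05. At day 7 no point is filled, and at day 3 all 10 estimates are above 0 and 6 are filled.

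For the inhibitor, Mcm7 was not told apart from any partner. With arm labels permuted within both days (400 regroupings, exact, two-sided), none of the 9 ratios passed after adjustment. The ratio of Mcm7 to Gins2 changed by -0.41 and that to Cdt1 by -0.33 (exact permutation p = 0.025 and adjusted p = 0.1125 in both cases). The other 7 ratios changed by -0.21 to 0.14, with exact p between 0.165 and 0.96. Against the mean of the other 5 ring subunits Mcm7 moved by 0.04 at day 7 and by 0.02 at day 3, less than the spread between libraries (SD 0.26 and 0.09). A permutation within a single day of 3 against 3 cannot go below 0.1.

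The estimated effect of the inhibitor was lower at day 7 than at day 3 for all 10 genes, and the difference of effects passed in limma for Mcm7 alone. It was -0.38 ± 0.13 for Mcm7 (SE, adjusted p = 0.0432), where 9.07% of tested genes had a call in this direction. Mcm5 had -0.71 ± 0.25 (adjusted p = 0.0566) and Mcm2 -0.26 ± 0.11 (adjusted p = 0.0988), and the median of the 10 was -0.30, against -0.00 over all tested genes. The call of Mcm7 stands close to the threshold and was lost without any 1 of 10 of the 12 libraries (adjusted p 0.0515 to 0.118). It held when replicate 2 of scrambled day 7 (0.0323) was left out, and likewise for replicate 3 of anti-miR-106b day 3 (0.0304). Since the estimates of Mcm5, Mcm3 (-0.47 ± 0.24) and Mcm6 (-0.44 ± 0.28) were larger in size with larger errors, the call does not set Mcm7 apart from them, and Mcm7 minus the ring mean changed by 0.02 here. This contrast, the inhibitor effects and the changes between days share the same 12 libraries. Scaled to total reads 3 of the 10 passed, with the median of all tested genes at -0.22 in place of -0.00, and the calls over all genes were 866 higher and 3501 lower, where the authors' scaling gave 1858 and 1276.

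Other parts of the replication machinery were taken from lists of genes with known roles. The list of CMG and other helicase parts held Cdc45, Gins1, Gins3, Gins4 and Mcmbp. Of these, 1 of 5 was higher with anti-miR-106b at day 3, Gins1 (0.55 ± 0.14, adjusted p = 0.00899 in limma), a GINS subunit. That share is near the 16.3% of all tested genes that were higher. Gins4 had 0.18 ± 0.08 (adjusted p = 0.0965) and Gins3 0.39 ± 0.22 (adjusted p = 0.183). Between the days 3 of the 5 fell in both arms, where 40.8% of tested genes in the anti-miR-106b and 35.3% in the scrambled arm did. Cdc45, which joins the ring with GINS, changed by -1.15 in the anti-miR-106b and -1.09 in the scrambled arm, Gins3 by -1.37 and -1.23 and Gins1 by -1.07 and -0.75. Mcm8 and Mcm9, MCM relatives outside the ring, had 0.22 ± 0.16 and 0.14 ± 0.14 at day 3 and did not pass (adjusted p = 0.308 and 0.455). None of the 7 origin recognition and licensing genes passed at day 3, with Orc6 at 0.27 ± 0.11 (adjusted p = 0.0674), and between the days 3 rose and 3 fell in the anti-miR-106b arm, where 37.9% and 40.8% of tested genes did, and 0 rose and 3 fell in the scrambled arm, where 32.9% and 35.3% did. Of those that fell, Orc1 passed the filter only through day 3. None of 11 activation kinases and firing factors passed at day 3, Dbf4, the activator of the Cdc7 kinase, having 0.54 ± 0.22 (adjusted p = 0.0760), while 10 of 11 fell between the days in each arm. Clspn, Recql4 and Ticrr among them passed the filter only through day 3, and of the other 8, 7 fell in each arm.

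The counts of these lists at day 3 stand beside 16.3% of all tested genes higher and 19.4% lower. Downstream of the helicase, 4 of 12 polymerase and primase genes were higher at day 3, among them the polymerase delta subunits Pold4 (0.45 ± 0.08), Pold1 (0.43 ± 0.09) and Pold3 (0.42 ± 0.11). Of the clamp, loader, ligase and RPA genes 3 of 12 were higher and 1 lower, with the clamp loader subunits Rfc2 (0.45 ± 0.06) and Rfc5 (0.52 ± 0.10) and the ligase Lig1 (0.68 ± 0.14). Nucleotide supply had the largest share of these lists, 5 of 7 higher, with thymidylate synthase Tyms (0.73 ± 0.17), thymidine kinase Tk1 (0.30 ± 0.08) and the dUTPase Dut (0.32 ± 0.09). Of G1/S genes 2 of 8 were higher, a share near that of all genes, and both are inhibitors of cyclin-dependent kinases, Cdkn1a (0.70 ± 0.13) and Cdkn1c (0.70 ± 0.19). E2F factors and pocket proteins went both ways, 1 of 13 higher and 4 lower, with Tfdp2 (-0.50 ± 0.06), the repressor E2f6 (-0.50 ± 0.10) and the pocket protein Rbl2 (-0.40 ± 0.10) lower. Of mitosis markers 2 of 12 were higher, also near that share, Birc5 (0.79 ± 0.24) and Aurka (0.36 ± 0.10), and Cdk1 had 0.46 ± 0.22 (adjusted p = 0.118). At day 7 none of the genes of these lists passed in limma, where 9 of all tested genes did and 1580 had an unadjusted p below 0.05. Between the days all 12 mitosis markers fell in both arms, where 40.8% of tested genes in the anti-miR-106b and 35.3% in the scrambled arm did. Bub1 among them passed the filter only through day 3. The other 11 had medians of -3.05 in the anti-miR-106b and -2.56 in the scrambled arm, and the 7 helicase genes at 1 CPM in every library -2.01 and -1.54.

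**Figure D5:**
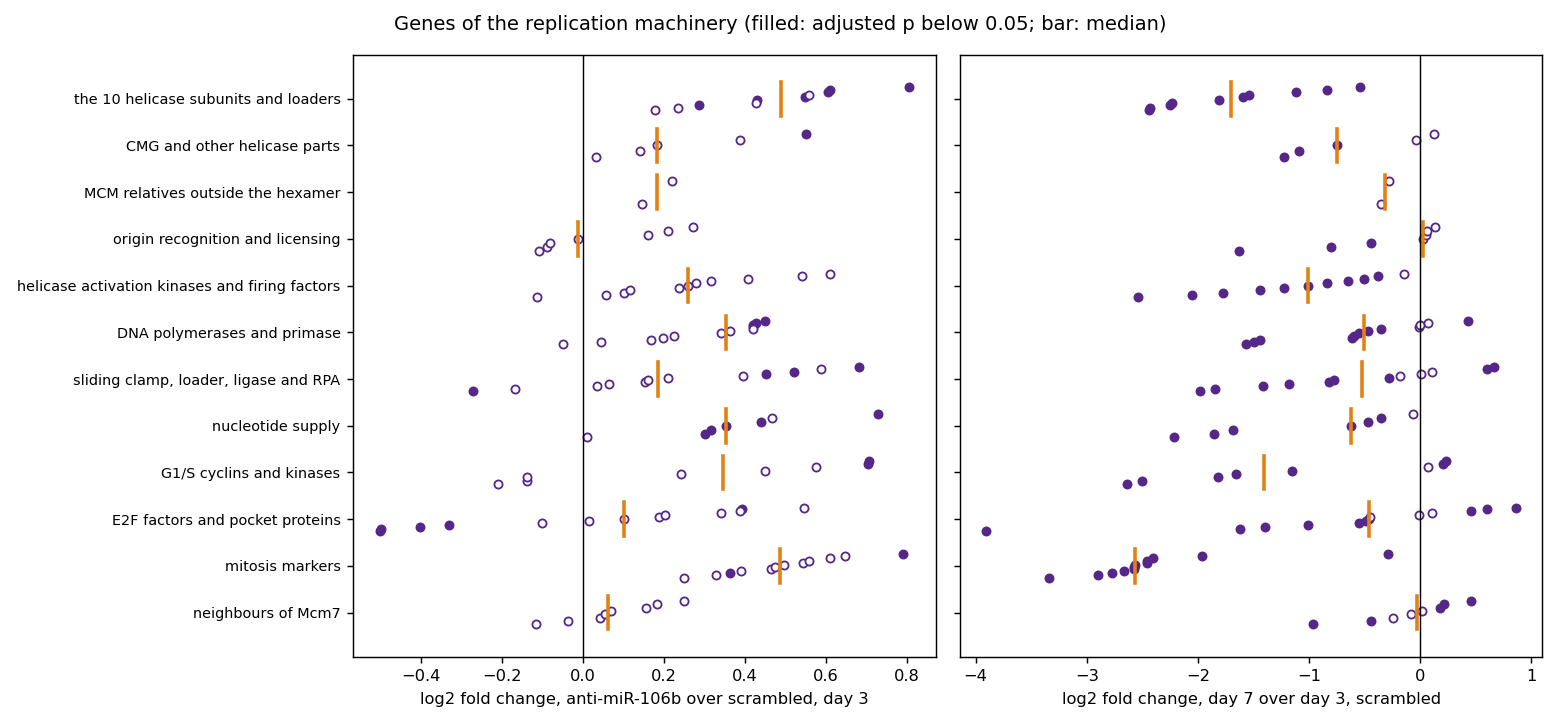
Log2 fold changes of the genes of each list (1 point per gene, filled where the adjusted p in limma was below 0.05, bar at the median) for anti-miR-106b over scrambled at day 3 (left) and for day 7 over day 3 in the scrambled arm (right). The 10 helicase genes and the mitosis markers have day 3 medians of 0.49, and the mitosis markers have the lowest median between the days, -2.57.

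Over the 12 libraries the genes whose log2 levels were most like those of Mcm7 were Tk1 (Pearson r = 0.998), Rfc5 (0.993), Snx8 (0.993), Baalc (0.992), Cdh15 (0.992) and Dynlt1a (0.990). Tk1 and Rfc5 act in nucleotide supply and clamp loading, and Cdh15 is a cadherin of satellite cells and myoblasts. Baalc averaged -0.48 log2 CPM in anti-miR-106b and -0.63 in scrambled day 7 muscles, and passed the filter through day 3. That favours likeness to a gene that fell between the days. The partners were less alike, from 0.916 for Mcm10 to 0.973 for Mcm5, and ranked 349 to 3000 among 14062 genes. The libraries form 4 groups, so these r values mostly describe the group means. With group means removed the likest genes were Rnps1 (0.938), Tk1 (0.937), Zfp128 (0.933), Dus2 (0.917), Fxyd7 (0.895) and Cops7b (0.889), and the partners had r from -0.15 for Mcm10 to 0.29 for Mcm5. These are picked from the top of 14062 values on 8 degrees of freedom, and whether unrelated genes reach as high was not tested. Both orders use the same 12 libraries. Tk1, high in both orders, had a log2 level of 3.66 ± 0.04 in anti-miR-106b day 7, 3.60 ± 0.08 in scrambled day 7, 4.52 ± 0.10 in anti-miR-106b day 3 and 4.22 ± 0.07 in scrambled day 3 muscles (log2 CPM, SD, n = 3 each).

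The 4 annotated protein-coding neighbours on either side of Mcm7 had no call for the inhibitor within a day. In limma 0 of 8 passed at day 7 and 0 of 8 at day 3, with Cnpy4 at 0.25 ± 0.11 (adjusted p = 0.0814), Ap4m1 at 0.16 ± 0.12 and Zscan21 at -0.12 ± 0.07 at day 3. The change of the effect between days passed for Zscan21, at 0.31 ± 0.10 (adjusted p = 0.0405, where 13.2% of tested genes had a call in this direction), opposite in sign to that of Mcm7. Between the days 3 of 8 rose and 3 fell in the anti-miR-106b arm, and 3 rose and 2 fell in the scrambled arm, shares near those of all tested genes. Ap4m1, which starts inside the Mcm7 promoter window, changed by -0.73 and -0.44, and Cnpy4 by -1.23 and -0.97. Over the libraries, levels of Cnpy4 and Ap4m1 ran most closely with those of Mcm7 among the neighbours (r = 0.95 and 0.89). Those of Zkscan1, Zfp113 and Mblac1 had r of 0.31, 0.52 and 0.78, and those of Zscan21, Taf6 and Cops6 ran against Mcm7 (r = -0.86, -0.87 and -0.70). Mcm7 shares 321 exon bases with Ap4m1 and 64 with Cops6, both on the opposite strand, and Gins2 shares 2758 with Gse1. Strand use in counting is not given in the sources used here, so reads in those stretches cannot be told apart. Mir17hg, the host transcript of the cluster with miR-17 and miR-20a, had -0.01 ± 0.19 for the inhibitor at day 3 (adjusted p = 0.973) and fell between the days, with -0.50 in the anti-miR-106b (adjusted p = 0.0263) and -0.94 in the scrambled arm.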

How the data were processed

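The deposited table holds log2 CPM that the authors made from RNA-seq reads. The submitters' processing notes name build mm10, the aligner STAR, limma 3.34.9, edgeR 3.20.9, the counter featureCounts, and for read checks and trimming FastQC 0.72 and Trim Galore 0.4.3.1, without settings. Every value of the table returned a whole read number within 0.001, after a prior of 0.25 reads on average and library scaling factors that averaged 0.828 ± 0.022 in anti-miR-106b day 7, 0.845 ± 0.037 in scrambled day 7, 1.28 ± 0.03 in anti-miR-106b day 3 and 1.12 ± 0.03 in scrambled day 3 (SD, n = 3). Reads carry no molecular identifiers.

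The deposited values were fitted in limma 3.58.1 (R 4.3.3) with 1 mean per group over 12 libraries and a prior variance with trend (8 residual and 5.59 prior degrees of freedom), over genes at 1 CPM in at least 3 libraries. Fold changes are on this log2 scale, tests were two-sided, and the fit and the permutation were tested on simulated data. The 10 genes and the lists were chosen with earlier results of these data known. Named genes are the 10, the neighbours, the 6 likest genes by each measure (predicted genes and RIKEN names left out) and up to 3 per list with the smallest day 3 p; Cdc45 was added after its values were seen. Symbols matched to GENCODE M21 numbered 27907.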

Additional observations from a re-analysis of the deposited data

Results flagged for a closer look

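The effect of anti-miR-106b on Mcm7 differed between the days: the difference of effects, day 7 minus day 3, was -0.38 ± 0.13 on the log2 scale (SE, adjusted p = 0.0432 in limma), with effects of 0.05 ± 0.09 at day 7 and 0.43 ± 0.09 at day 3. It was singled out because the difference itself was tested and passed, and it did not pass in most fits that left out a library.

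The effect on Zscan21, a neighbour of Mcm7 on chromosome 5, differed between the days in the other direction, by 0.31 ± 0.10 (SE, adjusted p = 0.0405 in limma), with effects of 0.19 ± 0.07 at day 7 and -0.12 ± 0.07 at day 3, neither of which passed.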

How the results depend on the processing

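Each result was recomputed under other settings, and no called result changed direction. Single-library omissions moved the count of helicase genes passing at day 3, otherwise 6, between 1 and 7, the count for the change of effect, otherwise 1, between 0 and 3, and the change of effect of Mcm7 between -0.45 and -0.31. Calls over all 14063 genes moved too, between 1430 and 2685 higher at day 3 and between 788 and 2089 lower for the change of effect. The change of effect of Mcm7 stayed -0.38 but missed the threshold with no filter on low genes (adjusted p = 0.0744) and with a prior without trend (0.0608). The count of helicase genes passing was 0 in both fits, where 1006 of 28116 and 1101 of 14063 genes were lower. The count was 2 with the replicate block, with 1 CPM added, with quantile normalization and with voom weights on the recovered reads, 3 scaled to total reads and 4 with library quality weights. Lower calls over all 14063 genes, 1276 as reported, were 1169, 1611, 1686 and 1345 in the first 4 of these fits. They were 3501 of 14191 scaled to total reads and 2533 of 14063 with library quality weights. Nothing in the labels pairs libraries by number. Residuals of same-numbered libraries had correlations of -0.04 to 0.14 over 6 pairs, of which only replicate 3 at day 7 was above 0.1. With 5 of 6 closest to their own number, this is a hint from the data only. The replicate block changed no other count of helicase genes called. Against the mean of all 9 partners in place of the ring, Mcm7 moved between the days by 0.88 in the anti-miR-106b and 0.94 in the scrambled arm. That mean includes Mcm10, Cdc6 and Gins2, whose fall the filter favoured, so the excess over the ring values of 0.63 and 0.61 carries no weight. The cause was not tested. With total-read scaling the median of all tested genes between the days was -0.67 in the anti-miR-106b and -0.42 in the scrambled arm, with 2152 higher and 9745 lower, and 1519 and 8711 calls, where the authors' scaling gave 5331 and 5736, and 4624 and 4963. Quantile normalization gave 6079 and 3939 in the scrambled arm. Within 1 arm the ratio tests cannot go below 0.1. Over both arms, leaving out each of 12 libraries (chosen after seeing the data) kept all 8 ratio calls, at adjusted p up to 0.0169. Those to Mcm10, Cdc6 and Gins2, favoured by the filter, are among the 8. The change of effect could not be fitted on the groups compared alone, since it needs all 4. At day 7 the low levels of Mcm10, Cdc6 and Gins2 limit what can be seen.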
